A study of Mus musculus with 6 samples.

Results

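The MHC class II presentation genes H2-Aa, H2-Ab1, H2-Eb1, H2-DMa, H2-DMb1, H2-Oa, H2-Ob, Cd74 and Ciita were examined in bulk RNA-seq of sorted tumor-associated macrophages (TAMs). These 9 genes were chosen by name, and all 9 were present among the 23424 genes of the count tables and among the 14645 protein-coding genes tested. TAMs were collected from tumors of YUMM1.7, a mouse melanoma line, grown in the skin of female C57Bl/6J mice. All mice were WT, 8 weeks old at tumor induction and left untreated, and the tumors were taken on day 21. Live CD45+ CD11b+ F4/80+ cells, negative for lineage markers by the study's methods, were split by FACS into F4/80high TAMs (3 libraries) and F4/80low TAMs (3 libraries). Tumors were pooled before each sort, so a library stands for a pool of mice. Libraries with the same replicate number were taken to come from the same experiment, which the sample titles do not state. The comparison asks how the 2 subsets differed in the RNA for class II presentation.

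MHC class II molecules display peptides from endocytosed protein to CD4+ T cells. An alpha and a beta chain pair in the endoplasmic reticulum with the invariant chain, which blocks the groove and steers the complex to endosomes. There proteases cut the invariant chain down to the CLIP fragment, H2-DM exchanges CLIP for peptide, and H2-O restrains H2-DM. The transactivator CIITA switches the whole set on through a conserved promoter module, without binding DNA itself. Dendritic cells and B cells are the classic class II cells, and macrophages raise class II when exposed to interferon-gamma. C57BL/6 mice lack a working E alpha gene, so H2-Eb1 is transcribed but no I-E dimer forms from it. The H2-Ea gene was not analysed here.

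The shared promoter module is shown as background, because these genes are the classic example of coordinate control. Its part in the levels measured here was not tested. Windows of 300 bases, 250 before and 50 after the transcript start, were taken from RefSeq (GRCm38.p6), and 6 of the 9 genes had one. H2-Ab1, Cd74 and Ciita had none. The sequences below are 5′ to 3′ on the coding strand, with the X box core (GNAAC) and the Y box core (ATTGG, an inverted CCAAT) in capitals.
H2-Aa, chr17:34287857-34287916, minus strand: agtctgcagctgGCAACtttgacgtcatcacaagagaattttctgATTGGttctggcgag
H2-Eb1, chr17:34305764-34305822, plus strand: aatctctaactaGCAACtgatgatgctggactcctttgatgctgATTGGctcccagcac
H2-DMb1, chr17:34153085-34153144, plus strand: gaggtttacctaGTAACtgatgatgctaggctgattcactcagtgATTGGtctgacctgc
H2-Oa, chr17:34092291-34092350, plus strand: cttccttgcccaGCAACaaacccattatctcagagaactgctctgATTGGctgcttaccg
H2-Ob, chr17:34238806-34238862, plus strand: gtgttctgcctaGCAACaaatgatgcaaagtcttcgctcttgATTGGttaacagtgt

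In these 5 genes the Y box core began 30 to 33 bases after the start of the X box core. The X box core began 76 to 94 bases before the transcript start, and the Y box core 43 to 61 bases before it. The motif letters and the spacing were chosen after the sequences had been read. With a spacing of 28 to 36 bases allowed, the same pair on the coding strand was found in 0.734% of all 32851 windows, and in 1.55% on either strand, so 5 of 6 genes carried a rare arrangement. Singly the cores were common, with GNAAC in 84.8% and ATTGG in 37.4% of windows on either strand. Neither of the 2 windows of H2-DMa held the pair. H2-Eb2, a neighbouring beta chain gene, held it 132 bases before its start, and H2-DMb2 held ATTGG at 90 bases before its start without the paired X box core.

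**Figure D1:**
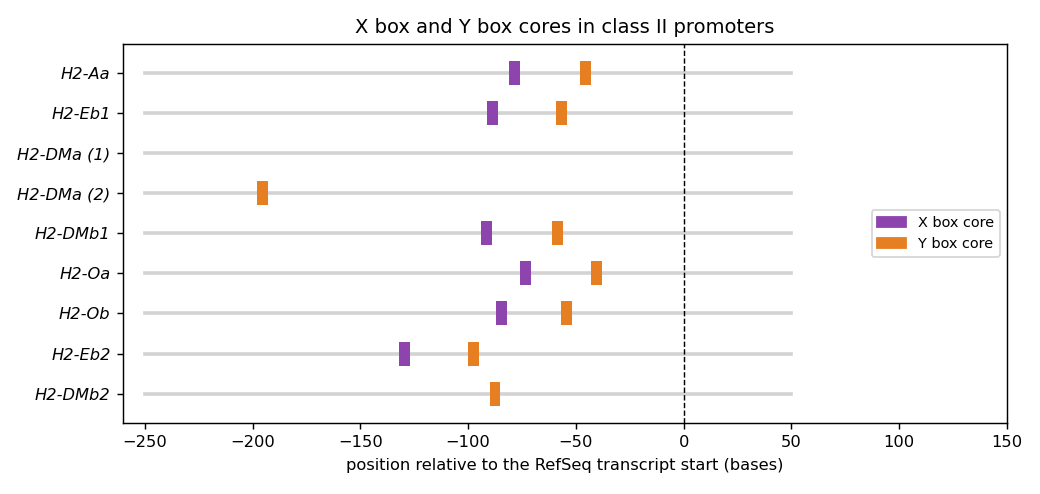
Position of the X box core (purple) and the Y box core (orange) relative to the RefSeq transcript start (dashed line) in the 300-base windows (grey lines) of class II genes. An X box core is drawn only where it is paired with a Y box core; H2-DMa has 2 windows, and the 5 other members shown carry the pair 30 to 33 bases apart.

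The libraries held 16045281 to 43604373 counts. Replicates 1 and 2 formed a first batch and replicate 3 a second, as the study's supplementary plot of the samples labels them, and the batches differed in makeup: protein-coding genes took 97.2% to 97.9% of counts in the first and 89.3% to 89.9% in the second, where Lars2, Gm23935 and Gm15564 together took 16.1% to 17.1%. Adgre1, which encodes F4/80 itself, stood at 273, 539 and 360 CPM (counts scaled to a common library size by TMM) in F4/80high replicates 1 to 3 and at 243, 327 and 183 CPM in F4/80low. It was higher in F4/80high TAMs in 3 of 3 pairs, with a log2 fold change of 0.67 ± 0.30 (SE) and an adjusted p of 0.664 (edgeR). All 8 macrophage markers examined were detected in all 6 libraries.

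Class II transcripts were abundant in both subsets. Per kilobase of transcript, Cd74, the invariant chain, ranked between 5th and 28th of the 14645 genes in the 6 libraries. H2-Ab1 ranked between 13th and 205th, H2-Eb1 between 23rd and 177th, and H2-Aa between 40th and 218th. H2-DMa and H2-DMb1 ranked between 315th and 3393rd. H2-Ob, Ciita and H2-Oa, which encode a modulator and a regulator rather than presenting chains, ranked between 2876th and 9409th.

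The order of the levels was Cd74, H2-Ab1, H2-Eb1, H2-Aa, H2-DMa, H2-DMb1, H2-Ob, Ciita and H2-Oa, by mean CPM per kilobase. Cd74 exceeded H2-Ab1 in 6 of 6 libraries, by 1.95 to 4.38 times, and H2-Aa exceeded H2-DMa in 6 of 6, by 2.29 to 8 times. H2-Eb1 also exceeded H2-Aa, and H2-DMa exceeded H2-DMb1, in 6 of 6 libraries. Other neighbours traded places: H2-Ab1 was above H2-Eb1 in 4 of 6 libraries, H2-DMb1 above H2-Ob in 5, H2-Ob above Ciita in 4, and Ciita above H2-Oa in 3.

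**Figure D2:**
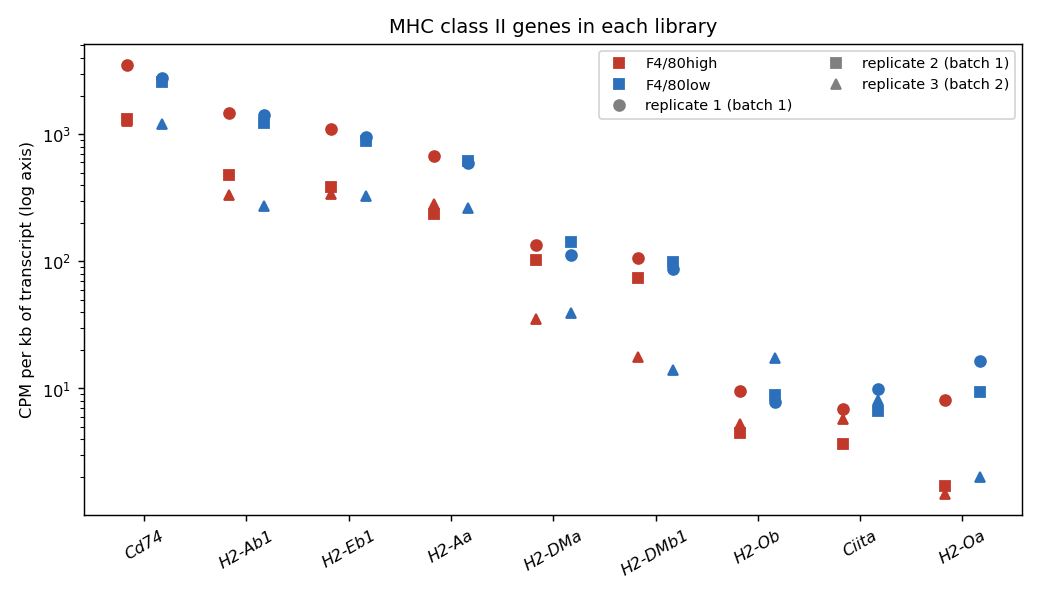
Level of each class II gene in each library, in CPM per kilobase of transcript on a log axis, ordered by the mean; red marks are F4/80high and blue marks F4/80low libraries, and the marker shape gives the replicate. The classical chains and Cd74 lie far above H2-Ob, Ciita and H2-Oa, and replicate 3 of both subsets is low for most genes.

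None of the 9 genes passed the test between the subsets. Genes were called at an adjusted p under 0.05 and a fold change over 2 in either direction, and by the edgeR quasi-likelihood test with batch as a covariate 0 of 9 were called, with adjusted p from 0.694 to 0.972. Over all 14645 genes 0% were called, so this count says nothing particular about class II. At an unadjusted p under 0.05 there were again 0 of the 9 genes, against 7.6% of all genes. DESeq2 called 0 of 9, against 1.02% of all genes, and the fit with the replicate number as a block 0 of 9, against 0.519%. The median log2 fold change of the 9 genes, F4/80high over F4/80low, was -0.20, against 0.01 for all genes.

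The 3 classical chains differed little between the subsets on average and a great deal between libraries. H2-Aa, the alpha chain of I-A, stood at 1270, 442 and 526 CPM in F4/80high replicates 1 to 3 and at 1110, 1150 and 491 CPM in F4/80low, a log2 fold change of -0.23 ± 0.36 (SE; adjusted p = 0.906, edgeR). H2-Ab1, its beta chain partner, stood at 2430, 786 and 544 CPM in F4/80high and at 2310, 2020 and 450 CPM in F4/80low, a log2 fold change of -0.20 ± 0.39 (adjusted p = 0.931, edgeR). Their groups overlapped, and the lowest batch 1 library was F4/80high replicate 2 for both.

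H2-Eb1, the E beta chain, followed the same course, at 1290, 454 and 401 CPM in F4/80high and at 1120, 1040 and 385 CPM in F4/80low. Its log2 fold change was -0.19 ± 0.35 (adjusted p = 0.927, edgeR). Cd74, the invariant chain, stood at 4900, 1860 and 1800 CPM in F4/80high and at 3880, 3670 and 1690 CPM in F4/80low, a log2 fold change of -0.08 ± 0.33 (adjusted p = 0.972, edgeR). The 95% intervals remained wide. They ran from -1.05 to 0.58 for H2-Aa, from -1.06 to 0.67 for H2-Ab1, from -0.99 to 0.61 for H2-Eb1 and from -0.83 to 0.67 for Cd74, so a change of 1 log2 unit upward lay outside each of them.

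The chains of the peptide editor H2-DM had the narrowest intervals of the 9 genes. H2-DMa, its alpha chain, stood at 221, 169 and 57.6 CPM in F4/80high and at 183, 231 and 64.8 CPM in F4/80low, a log2 fold change of -0.11 with a 95% interval from -0.62 to 0.39. H2-DMb1, a beta chain, stood at 158, 110 and 26.3 CPM in F4/80high and at 130, 146 and 21 CPM in F4/80low, a log2 fold change of 0.07 with an interval from -0.46 to 0.60. The groups overlapped for both genes, and H2-DMb1 was the only one of the 9 with a positive estimate. H2-DMb1 and H2-DMb2 are near-identical copies, and how reads common to both were assigned is not given in the sources used here. The annotated span of H2-DMa also overlaps Brd2 on the opposite strand, H2-Eb1 and H2-Oa each overlap an antisense gene, and whether counting used strand is likewise not given.

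The modulator H2-O and the regulator Ciita had the most negative estimates. H2-Oa stood at 10.7, 2.25 and 1.95 CPM in F4/80high and at 21.6, 12.3 and 2.62 CPM in F4/80low. Within each pair the F4/80high library was lower, while F4/80high replicate 1 still exceeded F4/80low replicate 3, and replicate 3 held only 18 and 23 counts. The log2 fold change was -1.13 ± 0.59 (unadjusted p = 0.0884, adjusted p = 0.696, edgeR), and it ranged from -1.94 when F4/80high replicate 1 was left out to -0.61 when replicate 2 of that subset was left out.

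H2-Ob, the H2-O beta chain, stood at 30, 14.1 and 16.5 CPM in F4/80high and at 24.8, 28.2 and 54.8 CPM in F4/80low. F4/80high replicate 1 lay above the 2 lower F4/80low libraries, so the groups overlapped. The log2 fold change was -0.73 ± 0.39 (unadjusted p = 0.0957, adjusted p = 0.696, edgeR). Without replicate 1 of both subsets it was -1.36 with an adjusted p of 0.0348, the single setting under which any of the 9 genes was called (1 of 9, against 2.58% of all genes); leaving out replicate 3 of both brought it to -0.26.

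Ciita stood at 36.5, 19.4 and 30.5 CPM in F4/80high and at 52.4, 35 and 42.7 CPM in F4/80low. The groups overlapped by a small margin, with F4/80high replicate 1 just above F4/80low replicate 2. The log2 fold change was -0.59 ± 0.30 (unadjusted p = 0.0807, adjusted p = 0.694, edgeR), and it ran from -0.88 without F4/80high replicate 1 to -0.39 without F4/80high replicate 2. Ciita overlaps Dexi on the opposite strand in the annotation.

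The replicate pairs did not tell the same story. In pair 1 the F4/80high library was higher for 7 of the 9 genes, with a median log2 difference of 0.20. In pair 2 it was lower for 9 of 9, with a median of -0.998, and in pair 3 it was higher for 5 and lower for 4, with a median of 0.06. The medians over all genes were 0.01, -0.02 and 0.00.

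The sign of the estimate for the classical chains and Cd74 rested on pair 2. In pairs 1, 2 and 3 the log2 differences were 0.20, -1.38 and 0.10 for H2-Aa, and 0.07, -1.36 and 0.28 for H2-Ab1. They were 0.20, -1.20 and 0.06 for H2-Eb1, and 0.34, -0.98 and 0.08 for Cd74. Without F4/80high replicate 2 the fitted log2 fold changes of these genes turned positive, at 0.11, 0.18, 0.14 and 0.22. In F4/80high replicate 2 the summed level of the 8 macrophage markers was 22900 CPM, against 4590 to 9920 CPM in the other 5 libraries, with Lyz2 alone at 16100 CPM. The part of this in the class II levels was not tested.

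H2-Oa and Ciita were lower in F4/80high TAMs in 3 of 3 pairs. The log2 differences in pairs 1, 2 and 3 were -1.01, -2.42 and -0.42 for H2-Oa and -0.52, -0.85 and -0.48 for Ciita. Over all genes 16% were lower in every pair, so 2 of 9 is a share near the background. With the replicate number kept as a block, the log2 fold change of H2-Oa was -1.36 ± 0.48 (unadjusted p = 0.0191, adjusted p = 0.363, edgeR). That of Ciita was -0.62 ± 0.23 (unadjusted p = 0.0258, adjusted p = 0.403, edgeR). These 2 of 9 genes passed an unadjusted p of 0.05 on the lower side of that fit, against 5.95% of all genes, and neither passed after adjustment. The 9 genes were chosen with earlier results of these data known, so this share cannot be read as an enrichment. H2-Ob was at -0.81 ± 0.38 with an unadjusted p of 0.0599 and an adjusted p of 0.539 in the same fit.

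**Figure D3:**
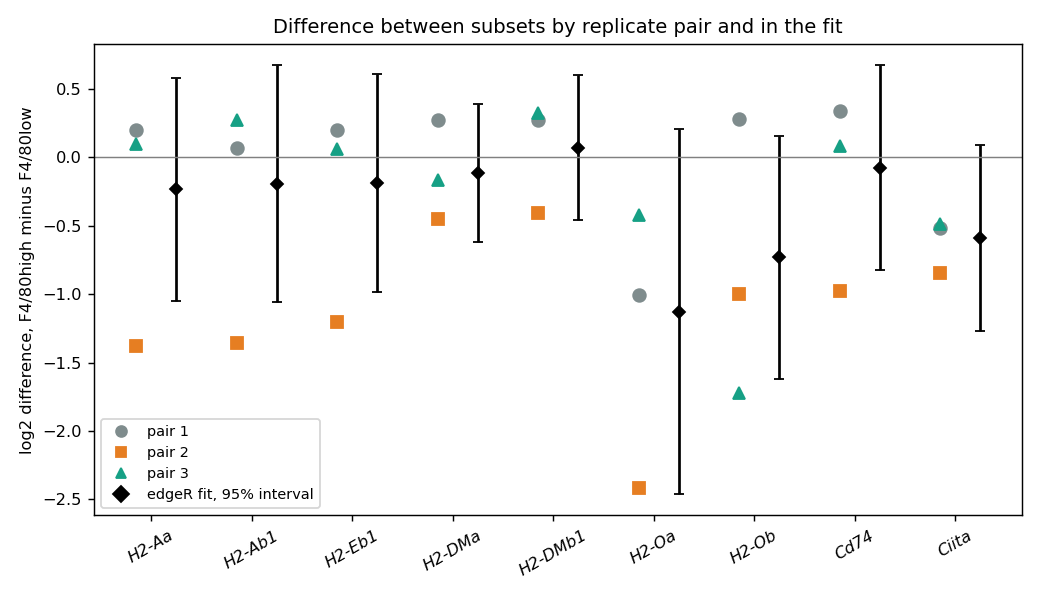
Log2 difference, F4/80high minus F4/80low, for each class II gene: grey circles, orange squares and green triangles are replicate pairs 1, 2 and 3 (difference of log2 CPM), and the black diamonds with bars are the edgeR estimates with 95% intervals. Every interval crosses 0, pair 2 is negative for all 9 genes, and H2-Oa and Ciita alone are negative in all 3 pairs.

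Markers of the classic class II cells were detected as well. The summed level of 9 dendritic cell markers was 345, 92 and 112 CPM in F4/80high replicates 1 to 3 and 604, 206 and 187 CPM in F4/80low, lower in F4/80high in 3 of 3 pairs, and 7 of the 9 were lower in every pair. Ccr7 made the largest part of the batch 1 sums, with 209 and 63.1 CPM for F4/80high TAMs against 354 and 120 for F4/80low. Xcr1 made the largest part in batch 2, with 42.6 CPM for F4/80high TAMs against 61.8 for F4/80low. Which marker led the sum thus differed between the batches. Flt3, the defining cytokine receptor of dendritic cells, stood at 2.81 to 12 CPM in F4/80high and 9.81 to 26.4 CPM in F4/80low, and 0 of the 9 markers were at 0 in every library. Clec9a stood at 3.13, 0 and 0.865 CPM in F4/80high and at 1.00, 3.96 and 0.456 CPM in F4/80low. The 7 B cell markers had a summed level of 142, 64.1 and 17.9 CPM in F4/80high and 81.1, 129 and 22.7 CPM in F4/80low, higher in F4/80high in pair 1 and lower in pairs 2 and 3, and 0 of the 7 were lower in every pair. Ms4a1, which encodes the B cell surface protein CD20, was detected in all 6 libraries, at 0.456 to 25.6 CPM. In the same pairs the H2-Oa differences were all negative and those of H2-Ob were positive in pair 1 only. The part of either cell type in the levels of H2-Oa, H2-Ob and Ciita was not tested. In bulk samples fewer cells of a type and less RNA per cell cannot be told apart.

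Markers of further cell types were also present. Lineage-positive cells were left out of the sort, and antibodies to T, B and NK cell markers are among those the study lists, although which of them made up the lineage gate is not given. The summed level of 5 monocyte markers was lower in F4/80high TAMs in 3 of 3 pairs, at 667 to 3640 CPM against 1620 to 6830 CPM. The sums of 5 neutrophil markers (218 to 1070 CPM against 453 to 2450 CPM) and of 5 eosinophil markers (88.2 to 175 CPM against 245 to 591 CPM) were also lower in 3 of 3 pairs. The 5 T and NK cell markers had sums of 894, 257 and 138 CPM in F4/80high and 295, 408 and 71.5 CPM in F4/80low. The 3 Langerhans cell markers summed to 1.79 to 13.1 CPM, and 5 plasmacytoid dendritic cell markers summed to 144 to 604 CPM, most of it from Tcf4. Of 5 melanoma markers 3 were in the tables, and they summed to 1.19 to 3.08 CPM. The part of these cells in the class II values was not tested.

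Ratios within a library do not depend on how it was scaled. The 2 H2-O chains amounted to 7.33%, 3.49% and 12.7% of the 2 H2-DM chains, per kilobase, in F4/80high replicates 1 to 3 and to 12.2%, 7.66% and 36.1% in F4/80low. The F4/80high library was the lower one in 3 of 3 pairs, and the groups overlapped. The log2 ratio differed by -1.12 ± 0.38 (SD of 3 pairs), with pair values of -0.74, -1.13 and -1.50. Leaving out whole pairs, a check added after the values had been seen, gave -1.32, -1.12 and -0.93 without pairs 1, 2 and 3. Leaving out a single library, which unbalances the pairs, gave extremes of -0.49 and -1.61, when F4/80low replicate 3 or 2 was dropped. F4/80high TAMs had the lower ratio in all of these, which reuse the same libraries. The ratio restates the single-gene estimates above and gives them no separate support.

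The makeup of H2-O itself was unsettled. The ratio of H2-Oa to H2-Ob per kilobase was 0.853, 0.383 and 0.282 in F4/80high, against 2.09, 1.05 and 0.115 in F4/80low. Pairs 1 and 2 had the lower ratio in F4/80high TAMs, and pair 3 the higher one. The dimer needs both chains, so a summed ratio does not give the amount of H2-O protein.

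The ratio of Cd74 to the classical chains differed little between the subsets and more between the batches. Per kilobase, Cd74 was 1.07, 1.2 and 1.34 times the summed level of H2-Aa, H2-Ab1 and H2-Eb1 in F4/80high, against 0.932, 0.955 and 1.39 times in F4/80low. The ratio was thus 0.932 to 1.2 in batch 1 and 1.34 to 1.39 in batch 2. Between the subsets the log2 ratio differed by 0.16 ± 0.20 (SD of 3 pairs), within the spread. Ciita per 1000 of classical chain RNA was 2.14, 3.36 and 6.1 in F4/80high, against 3.38, 2.44 and 9.42 in F4/80low. Pairs 1 and 3 had the lower value in F4/80high TAMs and pair 2 the higher one, a log2 difference of -0.28 ± 0.64 (SD of 3 pairs). The H2-DM chains amounted to 5.55% to 8.77% of the classical chains in 5 libraries and to 16.1% in F4/80high replicate 2.

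**Figure D4:**
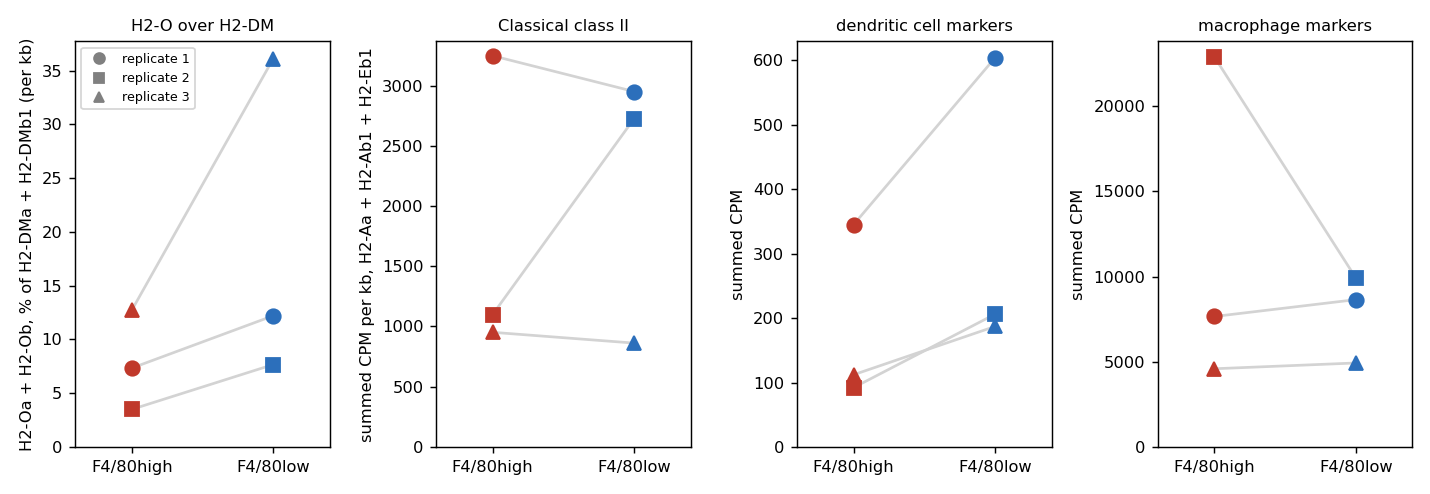
From left to right: H2-O chains as a percentage of H2-DM chains per kilobase, summed classical chains in CPM per kilobase, summed dendritic cell markers in CPM and summed macrophage markers in CPM. The largest part of the dendritic cell sum is Ccr7 in batch 1 and Xcr1 in batch 2. Each mark is a library and grey lines join the replicate pairs; the H2-O and dendritic cell panels rise from F4/80high to F4/80low in all 3 pairs, while the classical chains rise steeply in pair 2 only.

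Most class II genes differed between the batches, a comparison added after the values had been seen. Its p-values treat the libraries of a batch as independent, so they do not measure the spread between batches. With the subset held in the fit, 6 of the 9 genes were lower in batch 2 at an adjusted p under 0.05 (edgeR) and 0 were higher, against 22.7% of all genes lower and 20% higher. H2-DMb1 was 5.77-fold lower (log2 -2.53, adjusted p = 0.000154, edgeR), H2-Oa 4.61-fold lower (log2 -2.20, adjusted p = 0.0308, edgeR) and H2-Ab1 3.73-fold lower (log2 -1.90, adjusted p = 0.00771, edgeR). H2-DMa, H2-Eb1 and Cd74 were lower by 3.29-fold, 2.46-fold and 2.05-fold. H2-Aa was at -0.94 on the log2 scale with an adjusted p of 0.0852.

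Ciita and H2-Ob did not pass this test. Ciita had a log2 difference of 0.05 between batches (adjusted p = 0.922, edgeR) and H2-Ob one of 0.39 (adjusted p = 0.488, edgeR), and both were detected at 153 to 480 counts in the batch 2 libraries. The median batch difference was -1.30 for the 9 genes and -0.35 for all genes. Scaling moved both together: they were -1.10 and -0.16 with RLE size factors and -2.34 and -1.37 with library size alone, which left the class II median lower than that of all genes by 0.94 to 0.97. Leaving out libraries gave 2 to 7 genes lower in batch 2, with the fewest when either batch 2 library was left out. Batch 2 holds 1 library of each subset, taken to come from 1 experiment, so batch, experiment and library makeup cannot be told apart.

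With the batch means removed, the 4 abundant genes shared a pattern over the 6 libraries. F4/80high replicate 2 was low, the other batch 1 libraries were close together, and batch 2 was flat. H2-Aa, for example, stood at 442 CPM in F4/80high replicate 2 and at 1110 to 1270 CPM in the other batch 1 libraries. Correlations with the mean of the 4 therefore rest largely on 1 library. Pearson's r between single genes and the mean of the 4 was 0.991 to 0.999 for H2-Aa, H2-Ab1, H2-Eb1 and Cd74, which are part of that mean. It was 0.892 for H2-Oa, 0.819 for H2-DMb1, 0.801 for Ciita, 0.671 for H2-DMa and 0.50 for H2-Ob. H2-Oa and Ciita were closest to each other, at 0.966.

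The genes whose pattern was most like that mean were Dlk1 and Arid4b (both 0.999), Lamc1 and Fam171a1 (both 0.998), Itga3 (0.997) and Dio2 (0.996). None of them is a class II gene. Of 10063 genes compared 143 had r over 0.95, and the points share their libraries, depth and batch, so these values are descriptions over 6 points.

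The other genes of the class II region gave no call either. Of 9 listed, 7 were tested and 0 were called, with a median log2 fold change of -0.15. H2-Eb2, a weakly expressed beta chain gene, stood at 2.42, 0.311 and 0.541 CPM in F4/80high and at 2.66, 2.78 and 2.97 CPM in F4/80low. Every F4/80low library was above every F4/80high library. F4/80high replicates 2 and 3 held only 16 and 5 counts and F4/80low replicate 3 held 26, so this separation rests on few reads. Over all genes 5.2% had no overlap between the subsets, and among the 9 class II genes the subsets overlapped for each. The log2 fold change of H2-Eb2 was -1.42 ± 0.87 (adjusted p = 0.714, edgeR). H2-DMb2 stood at 53.3, 24 and 17.6 CPM in F4/80high and at 72.6, 45.1 and 22.4 CPM in F4/80low, lower in 3 of 3 pairs, with a log2 fold change of -0.52 ± 0.34 (adjusted p = 0.724, edgeR). The immunoproteasome and transporter genes of class I presentation that lie in the same region had log2 fold changes of -0.02 for Psmb8, -0.14 for Psmb9, -0.24 for Tap1 and -0.15 for Tap2. Btnl2, a butyrophilin-like gene, was at 0 to 2.54 CPM, too low for its estimate to be read.

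Of 18 genes of class II transcription and interferon-gamma signalling 0 were called, with a median log2 fold change of -0.15. Estimates were negative for 14 and positive for 4, beside 7210 and 7435 of all 14645 genes. The list was chosen with earlier results known, so these counts cannot be read as an enrichment. Jak2, a kinase of the interferon-gamma receptor, had the smallest p of the list. It stood at 99.6, 65.2 and 210 CPM in F4/80high and at 234, 106 and 453 CPM in F4/80low, lower in 3 of 3 pairs, with a log2 fold change of -1.07 ± 0.32 (unadjusted p = 0.00837, adjusted p = 0.504, edgeR). Rfx5, a subunit of the RFX complex that binds the X box, was at -0.86 ± 0.45 (adjusted p = 0.696, edgeR). Its partners Rfxank and Rfxap were at 0.09 and -0.035. Nfya, a subunit of the NF-Y factor that binds the Y box, was at 0.13, while the other subunits Nfyb and Nfyc were at -0.38 and -0.16. Usf1 was at -0.41 and Irf8, a myeloid transcription factor, at 0.29.

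Proteases that cut the invariant chain and process antigen differed in both directions before adjustment. Of 12 genes tested 0 were called, while 4 were higher and 2 lower at an unadjusted p under 0.05, against 3.28% of all genes higher and 4.32% lower. The list was chosen with earlier results of these data known, so these shares cannot be read as an enrichment. Lgmn, the asparaginyl endopeptidase of lysosomes, stood at 706, 1990 and 821 CPM in F4/80high and at 340, 601 and 375 CPM in F4/80low. All F4/80high libraries were above all F4/80low libraries, and the log2 fold change was 1.39 ± 0.39 (unadjusted p = 0.00605, adjusted p = 0.503, edgeR). Lgmn was called with the replicate block (log2 1.30, adjusted p = 0.0352, edgeR) and with DESeq2 (adjusted p = 0.0492), the 1 gene of the list called by either. Without F4/80high replicate 2, its highest library, the log2 fold change was 0.79. That setting unbalances the pairs, and the log2 differences in pairs 1 and 3 were 1.05 and 1.13.

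Cathepsins pointed both ways. Ctsb, an abundant lysosomal cysteine protease, was at 1.06 ± 0.41 and Ctsc, an aminodipeptidase, at 0.80 ± 0.30 on the log2 scale, both higher in 3 of 3 pairs (adjusted p = 0.607 and 0.598, edgeR). Without F4/80high replicate 2, the library with the highest macrophage marker sum, they were at 0.37 and 0.38. That setting keeps F4/80low replicate 2 and so unbalances the pairs. In pairs 1 and 3 the log2 differences were 0.56 and 0.75 for Ctsb, and 0.47 and 0.63 for Ctsc. Aspartic proteases went both ways as well. Ctsd, more abundant than Napsa and Ctse, was higher in 3 of 3 pairs. Its log2 fold change was 0.915 ± 0.386 (adjusted p = 0.639, edgeR), and it was named after its value had been seen. Napsa and Ctse were lower in 3 of 3 pairs. Napsa stood at 167, 53.9 and 51 CPM in F4/80high and at 309, 233 and 118 CPM in F4/80low, a log2 fold change of -1.26 ± 0.38 (adjusted p = 0.504, edgeR). Ctse stood at 16.2, 5.83 and 21.8 CPM in F4/80high and at 23.4, 24.6 and 53.5 CPM in F4/80low, with no overlap, a log2 fold change of -1.18 ± 0.37 (adjusted p = 0.524, edgeR). Ctss, the protease best known for the last cut of the invariant chain, was at 0.37 ± 0.27 (adjusted p = 0.747, edgeR); it was named for that role after its value had been seen. Cst3, a cysteine protease inhibitor, was at -0.30. Without replicate 1 of both subsets 5 of the 12 genes were called, and 2.58% of all genes.

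Genes of class II turnover and trafficking gave 0 calls among 16 tested, with 2 higher and 3 lower at an unadjusted p under 0.05, beside the same 3.28% and 4.32% over all genes. This list too was chosen with earlier results known, so the shares cannot be read as an enrichment. Ap1b1, a subunit of the AP-1 clathrin adaptor, was at 0.91 ± 0.31 and the tetraspanin Cd81 at 0.93 ± 0.36 on the log2 scale (adjusted p = 0.533 and 0.601, edgeR). Flot1, a membrane raft protein, was at -0.66 ± 0.21, and the tetraspanins Cd37 and Cd9 at -0.84 ± 0.30 and -0.54 ± 0.24 (adjusted p = 0.524, 0.574 and 0.654, edgeR). March8, a ubiquitin ligase that removes membrane proteins from the surface, was at 0.51 ± 0.26 (adjusted p = 0.694, edgeR). Without replicate 1 of both subsets 2 of the 16 were called, beside 2.58% of all genes.

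**Figure D5:**
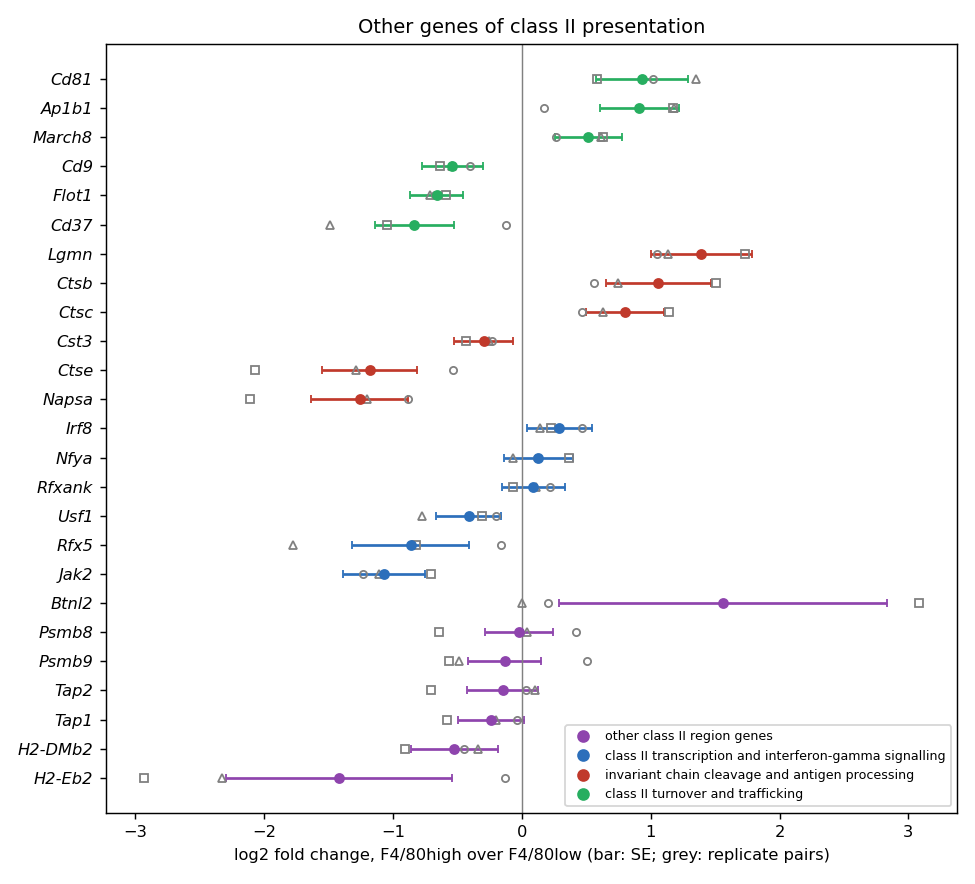
Log2 fold change, F4/80high over F4/80low, of the named genes in 4 lists around class II presentation (colors); filled circles are edgeR estimates, bars the SE, and open grey marks replicate pairs 1 (circle), 2 (square) and 3 (triangle). Lgmn at 1.39 and Napsa at -1.26 lie at opposite ends of the processing list, and all their pairs keep the sign of the estimate.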

How the data were processed

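Each of the 6 libraries had a deposited table of raw counts per gene, made by the authors' sequencing centre from poly-A libraries with its standard alignment pipeline; the aligner, counter, strand setting and genome build are not given in the sources used here. Genes were matched by ID to GENCODE release M21 (99.4% of IDs), and protein-coding genes whose 6 counts summed to 10 or more were kept (14645). Coordinates and promoters are those of GRCm38. edgeR 4.0.16 (R 4.3.3) was run with TMM scaling, batch and subset; a gene was called where its p, adjusted by Benjamini-Hochberg, was under 0.05 and its log2 fold change above 1 or below -1. CPM values are TMM-scaled, and pair differences use a prior count of 2. Alternatives were DESeq2 1.42.0, a replicate block, other scalings, filters and gene sets, no batch term, and leaving out libraries. Same-numbered libraries were taken to come from the same experiment, which the sample titles do not state. The correlation of their departures from the subset means was 0.745, 0.729 and 0.907 over 10072 genes (0.242 within batch 1). No 2 libraries agreed within sampling noise. The genes named were the 9 members, the other class II region genes, up to 3 genes in each direction with the smallest p in each other list, the 6 genes most like the 4 abundant members, Adgre1 and the leading markers. Ctss, Ctsd, Rfxap, Nfyb and Nfyc were added after their values had been seen. Members and lists were chosen with earlier results of these data known. A floor of 3 counts corresponds to 0.0583 to 0.342 CPM and covers counting error only. For the comparison of the subsets, p-values of the main fit measure the spread of the pooled sorts, 3 per subset, around the batch means. That fit treats same-numbered libraries as independent.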

Additional observations from a re-analysis of the deposited data

How the results depend on the processing

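The number of genes called over the whole table depended on the model and on single libraries: 0 as reported, 76 with the replicate block, 150 with DESeq2, 356 with DESeq2 and the replicate block, and 0 to 378 when libraries were left out (77 without F4/80high replicate 1, 378 without replicate 1 of both subsets and 66 without replicate 2 of both). Of the 9 class II genes 0 to 1 were called when libraries were left out and 0 under every other alternative run. The transcription list gave 1 call with DESeq2 and the block and 0 to 1 when libraries were left out. The processing list gave 1 with DESeq2, 1 with the block, 3 with both and 0 to 5 when libraries were left out, and the turnover list 0 to 2. The block changed no other call among these lists. Of the 9 genes 3 (H2-Oa, H2-Ob and Ciita) kept a negative sign under all 19 alternatives, from -1.94 to -0.61, from -1.36 to -0.26 and from -0.88 to -0.39, and 6 changed sign under at least 1. The alternatives reuse the same libraries, so they are not 19 separate checks. For H2-Oa, leaving out replicate 3 of F4/80high, of F4/80low or of both gave -1.4, -1.4 and -1.39. When libraries were left out, log2 fold changes ran from -0.71 to 0.11 for H2-Aa, from -0.69 to 0.18 for H2-Ab1, from -0.67 to 0.14 for H2-Eb1, from -0.31 to 0.0188 for H2-DMa, from -0.0592 to 0.26 for H2-DMb1, from -0.53 to 0.22 for Cd74, from -0.31 to 0.199 for Psmb8, from -0.529 to 0.0377 for Psmb9, from -0.411 to 0.0773 for Tap2 and from -0.0241 to 0.24 for Nfya. Without the batch term H2-DMb1 was at -0.0176 and Nfya at -0.0026, and with library size alone Psmb8 was at 0.0371. The H2-O to H2-DM difference ran from -1.61 to -0.49. The number of class II genes lower in batch 2, added after the data were seen, ran from 2 to 7 when libraries were left out and from 5 to 8 otherwise. The causes were not tested. With 1 library left in batch 2, the lone library is assumed to vary like the others. Replicate 3 of both subsets, with 16045281 and 16204810 counts, limits what can be read for H2-Oa.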
